A study of Mus musculus with 8 samples.

Results

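The report concerns 9 genes that mark astrocytes, taken by symbol from tables of RNA in the mouse suprachiasmatic nucleus (SCN), the pacemaker of the hypothalamus. They are Gfap, Aqp4, Slc1a2, Slc1a3, Gja1, Gjb6, Aldh1l1, Aldoc and S100b. All 9 were found among the 20741 genes of the sense-strand table, and 104 of the 176269 listed introns carried their symbols. Polyadenylated RNA of C57/BL6 mice was sequenced in 8 libraries, 1 every 6 h over 2 days. The mice had been entrained to alternating 12 h of light and dark and were then kept in complete darkness, and each library pooled equal RNA from 3 mice. There is no other genotype or treatment. Libraries 24 h apart were taken as 2 replicates of a circadian time (CT), with CT4 and CT10 in the subjective day and CT16 and CT22 in the subjective night. Dusk below means CT10 and CT16, and dawn means CT22 and CT4. Replicate 1 comes from the first cycle and replicate 2 from the second. The labels state no replicates, so edgeR and DESeq2 p-values measure spread between pooled libraries around the fitted terms. Permutation p-values, used for correlations, shuffle all 8 libraries, which are in time order and not replicates of 1 condition. A shared course over time can therefore also make them small.

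Astrocytes clear glutamate from synapses, buffer water and potassium at their endfeet on blood vessels, and share small molecules through gap junctions. In the SCN they hold a molecular clock of their own and signal to neurons partly through glutamate, which is why the transporters and connexins below are of interest there. Several of these genes are not specific to astrocytes: S100b is also made by cells of the oligodendrocyte lineage.

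None of the 9 genes passed the main test for a 24-h rhythm, and their levels did not run together over the libraries as 1 group. In edgeR's quasi-likelihood test for a 24-h rhythm, 0 of 9 had an adjusted p under 0.05, where 0.112% of the 15217 tested genes did. At an unadjusted p under 0.05, 1 of 9 (Gjb6) passed, against 8.6% of all genes tested. With a further term for CT4 and CT16 against CT10 and CT22, 3 of 9 did, and 1557 of all genes. It was 1 of 9 with a cycle term, and 1257 of all genes. With a score of oligodendrocyte markers, described below, it was 0 of 9, and 1095 of all genes. DESeq2 called 0 of 9 at an adjusted p under 0.05 as well. Without a filter on low counts edgeR called 2 of 9 for the rhythm, Gfap and S100b, where 1.75% of all genes were. Gfap varied 2.98-fold and S100b 2.18-fold between libraries (2.59-fold and 1.73-fold without CT10 replicate 1), and both ranked the libraries in the same order, while Slc1a2 and Slc1a3, the glutamate transporters, stayed within 1.21-fold. The order in which Gfap and S100b ranked the libraries was also that of the score of 12 oligodendrocyte markers.

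Gfap has 2 main ends, and the deposited splice junctions count both. GFAP alpha is the common filament protein, and GFAP delta has another C-terminal tail. The run below is shown because it is where the delta message parts from the common one: 20 bases of the shared 44-base exon in lower case, then the first 40 coding bases of the delta exon in capitals. It was read from a GENCODE vM21 transcript, and the junction was matched to it by intron length (390 bases) on the minus strand.
Gfap delta, junction chr11:102752835-102753224 (mm9): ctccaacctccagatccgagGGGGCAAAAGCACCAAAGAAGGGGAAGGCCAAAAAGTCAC

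Gfap and S100b were the pair of genes that moved together, so the 250 bases before their RefSeq start sites (GRCm38.p6) are shown as well. Capitals mark the motif matches found.
Gfap, chr11:102897201-102897450, minus strand: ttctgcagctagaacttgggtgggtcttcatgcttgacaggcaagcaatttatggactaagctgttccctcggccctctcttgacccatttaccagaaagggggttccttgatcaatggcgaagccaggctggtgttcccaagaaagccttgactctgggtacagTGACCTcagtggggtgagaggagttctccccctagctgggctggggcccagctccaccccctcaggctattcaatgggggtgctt
S100b, chr10:76253586-76253835, plus strand: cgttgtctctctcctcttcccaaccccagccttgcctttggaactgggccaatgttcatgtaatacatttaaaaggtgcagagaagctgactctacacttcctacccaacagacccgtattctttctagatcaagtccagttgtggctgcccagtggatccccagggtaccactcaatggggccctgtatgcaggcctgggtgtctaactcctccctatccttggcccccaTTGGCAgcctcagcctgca
The search covered 8 of the 9 genes, on both strands and with overlaps allowed. The Gfap window held AGGTCA (on the opposite strand, as TGACCT), as did that of Aldh1l1 and 14.02% of all 32851 promoter windows in the table. The S100b window held TTGGCA, as did that of Aldoc and 12.3% of all windows. No motif searched was found in both the Gfap and the S100b window. CACGTG, the E-box bound by CLOCK and BMAL1, was in 0 of the 8 genes' windows and in 6.02% of all windows. TTATGTAA (0.819% of all windows), ACAAAG (16.5%) and the full palindromic NFI motif (0.0365%) were also in none of them. TTCNNNGAA was found for Aldoc and Slc1a3 (7.02% of all), TGANTCA for Gja1 (6.75%) and TATAAA for Slc1a3 (12.4%).

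Sense-strand totals ran from 11123610 to 11131890 reads per library, having been made nearly equal before deposit. Levels are normalised reads in CPM, the count divided by the effective library size and scaled to a common total, and each pair of values below gives replicate 1 and then replicate 2. CT10 replicate 1 stood apart: a sum of 6 arcuate-neuron markers was 96.0 CPM there and 14.2 to 38.8 CPM in the other libraries. It also had 84 antisense reads over the 9 genes, against 238 to 343 in the other 7. Values without that library are given beside the results that it moves most. In pooled tissue, fewer cells of a type and less RNA per cell cannot be told apart.

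**Figure D1:**
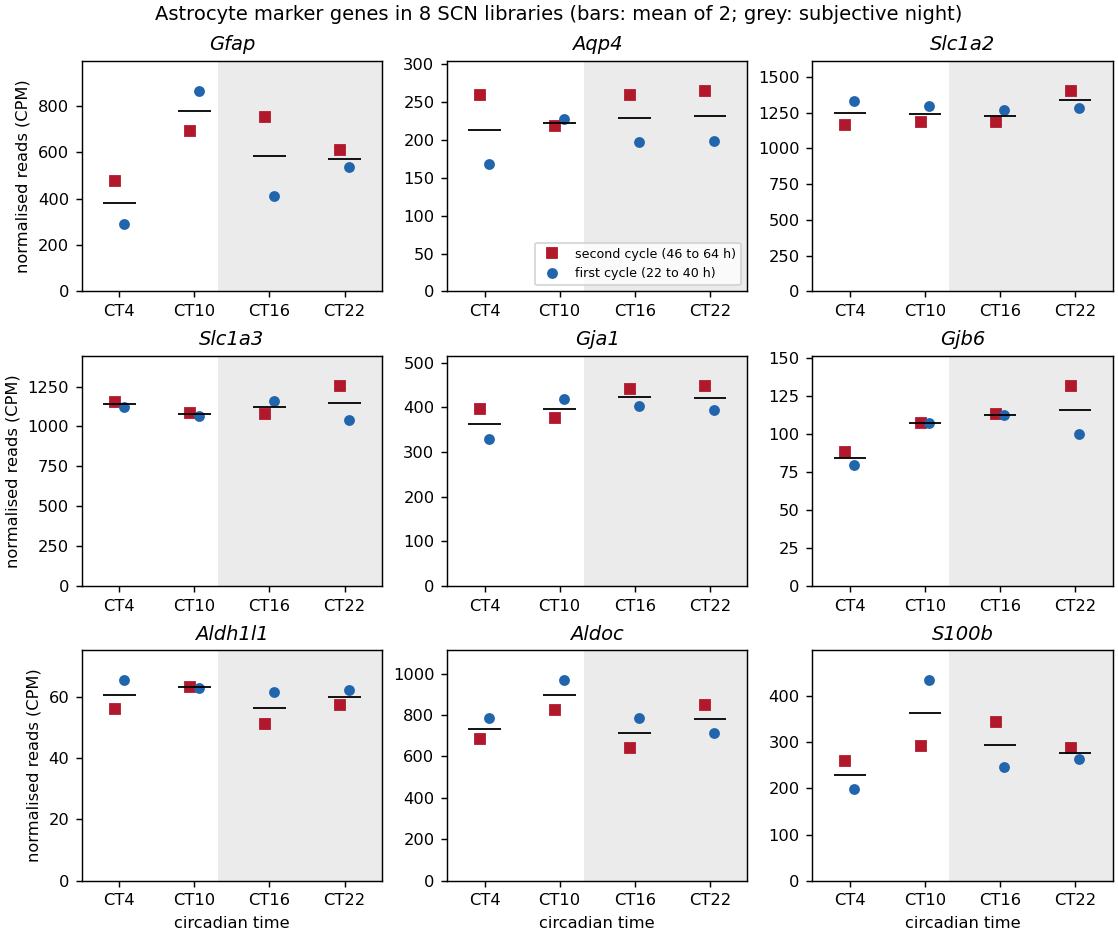
Normalised reads (CPM) of each of the 9 genes by circadian time: squares are libraries of the second cycle, circles those of the first, and bars the mean of both. Gfap ran from 289 to 863 CPM and S100b from 199 to 434 CPM, while Slc1a3 stayed between 1039.7 and 1255 CPM.

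Gfap (ENSMUSG00000020932, mm9 chromosome 11, 102748512-102762240) encodes the intermediate filament of astrocytes. It had 289 and 475 CPM at CT4, 863 and 690.1 CPM at CT10, 413 and 750.2 CPM at CT16, and 534 and 611 CPM at CT22. Both CT10 libraries were high and both CT4 libraries low, but the CT16 pair spanned most of that range, so day overlapped night and dusk overlapped dawn. The highest library had 2.98-fold the level of the lowest. The coefficient of variation over the 8 libraries was 32.5%, above that of 99.4% of 508 genes within 2-fold of its level.

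By edgeR, Gfap had a fitted log2 peak-to-trough difference of 0.75 ± 0.30 (SE) with a peak at CT13.6 (adjusted p = 0.619). Without CT4 replicate 1 this difference was 0.46, without CT10 replicate 1 0.61 and without CT16 replicate 1 1.19, and a term for the oligodendrocyte score, described below, left 0.11. It averaged 679 ± 191 CPM at dusk and 477 ± 137 CPM at dawn (SD, n = 4 each). The log2 difference was 0.52, with a 95% interval of 0.07 to 0.97 (edgeR adjusted p = 0.586). Without CT10 replicate 1 that difference was 0.36, and with each library left out in turn it lay between 0.29 (without CT4 replicate 1) and 0.78 (without CT16 replicate 1). Once the fit held the oligodendrocyte score it was -0.08 (edgeR adjusted p = 0.995). That score and Gfap had r = 0.996 over the same libraries. A fit holding the score therefore leaves little of any Gfap difference, peak to trough included, and no conclusion is drawn from it. Gfap was also lower at CT4 and CT16 than at CT10 and CT22, by a log2 term of -0.50 (edgeR unadjusted p = 0.0102, adjusted p = 0.588). That term was -0.32 without CT16 replicate 1 and -0.42 without CT10 replicate 1.

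Intron reads of Gfap followed the same libraries. All reads in its intron sum came from introns free of listed exons, and they were 8.34 and 18.8 CPM at CT4, 28.3 and 22.5 CPM at CT10, 17.2 and 27.9 CPM at CT16, and 16.1 and 23.5 CPM at CT22. CT10 replicate 1 was highest and CT4 replicate 1 lowest, as for the whole gene. The log2 dusk minus dawn difference of the intron sum was 0.54, with a 95% interval of 0.13 to 0.95 (edgeR adjusted p = 0.345). It was 0.29 without CT4 replicate 1 and 0.40 without CT10 replicate 1. Of the 1811 reads in the sum, 951 came from 1 intron of 713 bases next to the last exon. RNA not yet spliced and messages that keep an intron were not told apart.

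The delta end took a small share of the Gfap messages in every library. As a share of the reads over the delta and alpha junctions, it was 13.5% and 8.10% at CT4, 11.4% and 9.88% at CT10, 9.18% and 10.5% at CT16, and 7.003% and 8.95% at CT22. The highest library, CT4 replicate 1, had 29 delta and 186 alpha reads, with an exact Clopper-Pearson 95% interval of 9.22% to 18.8%. The lowest, CT22 replicate 1, had 25 and 332 reads, with an interval of 4.58% to 10.2%. These intervals cover counting error only, and they overlapped. The mean over libraries was 9.81% ± 2.02 (SD, n = 8), while the gene's total varied 2.98-fold between libraries.

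S100b (ENSMUSG00000033208, chromosome 10, 75716588-75724027) encodes a calcium-binding protein that glia also secrete. It had 199 and 259 CPM at CT4, 434 and 292 CPM at CT10, 245 and 344 CPM at CT16, and 264 and 287 CPM at CT22. CT10 replicate 1 was highest and CT4 replicate 1 lowest, the same libraries as for Gfap, and day and night overlapped. The highest was 2.18-fold the lowest, and the coefficient of variation was 24.5%, above that of 98.5% of 1386 genes of like level. Without CT10 replicate 1 the highest was 1.73-fold the lowest and the coefficient of variation 16.6%. Its most-read junction, with 5896 reads, ran only from 667 to 816 reads per library, and a junction with 845 reads ran from 59 to 191. Their fitted log2 peak-to-trough differences were 0.14 and 0.52, against 0.54 for the gene. S100b averaged 329 ± 80.8 CPM at dusk and 252 ± 37.4 CPM at dawn (SD, n = 4 each). The log2 difference was 0.38, with a 95% interval of 0.06 to 0.70 (edgeR adjusted p = 0.576), and lay between 0.19 and 0.53 with each library left out in turn, the lowest being without CT10 replicate 1. It was 0.25 without CT4 replicate 1. Once the fit held the oligodendrocyte score it was 0.03. S100b and that score had r = 0.932, so this fit too leaves little of a difference.

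Oligodendrocyte markers moved with both genes. The summed level of 12 of them, all detected and among them the myelin genes Mbp, Mog and Mag, was 5112 and 8497 CPM at CT4, 15325 and 13132 CPM at CT10, 8211 and 15983 CPM at CT16, and 10406 and 10548 CPM at CT22. The score of the list, the mean of centred log2 CPM, was related to the log2 level of each of the 9 genes over the 8 libraries, a comparison chosen after the values had been seen. For Gfap, Pearson's r was 0.996 (exact permutation p = 2.48e-05, adjusted over 9 relations 0.000223). Spearman's rho was 1 (exact permutation p = 4.96e-05, adjusted 0.000223). Each is the smallest p that the orders of 8 libraries can give for that measure. For S100b, r was 0.932 (exact permutation p = 0.000570, adjusted 0.00257) and rho was also 1, with the same p as for Gfap. Without CT4 and CT10 replicate 1, the 2 libraries farthest from the median score, r was 0.989 for Gfap and 0.940 for S100b. The other 7 genes had r between -0.380 and 0.703, and none had an adjusted p under 0.05 by the exact permutation test, the lowest being 0.157 for Gja1. No other list was related to the 9 genes in this way. Yet S100 relatives also had their lowest sum in CT4 replicate 1 (111 CPM) and their highest in CT10 replicate 1 (247 CPM). So did the filament and reactive astrocyte genes, at 486 and 836 CPM. Microglial markers ran from 298 CPM in CT4 replicate 2 to 413 CPM in CT10 replicate 1. General neuron markers were highest in CT4 replicate 1. The part of oligodendrocyte RNA in the levels of Gfap and S100b was not tested. Within each cycle there are only 4 libraries, too few for a correlation.

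**Figure D2:**
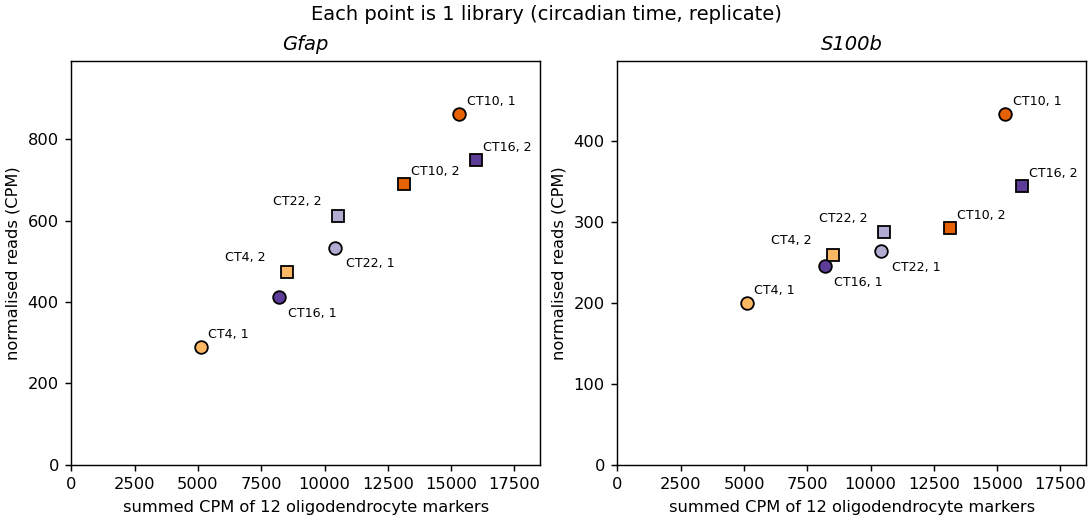
Normalised reads (CPM) of Gfap and S100b against the summed CPM of 12 oligodendrocyte markers, 1 point per library, labelled with circadian time and replicate. Both genes were lowest in CT4 replicate 1, where the markers summed to 5112 CPM, and highest in CT10 replicate 1, where they summed to 15325 CPM.

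Aqp4 (ENSMUSG00000024411, chromosome 18, 15547470-15562201) encodes the water channel of astrocyte endfeet. It had 168 and 258 CPM at CT4, 227 and 218 CPM at CT10, 197 and 259 CPM at CT16, and 199 and 264 CPM at CT22. The 4 times had nearly the same mean, and at CT4, CT16 and CT22 the library of the second cycle was higher than that of the first. The second cycle averaged 249.9 ± 21.5 CPM and the first 198 ± 24.2 CPM (SD, n = 4 each), with overlap through the CT10 pair. The log2 difference between cycles was 0.34, with a 95% interval of 0.12 to 0.55 (edgeR unadjusted p = 0.00468, adjusted p = 0.999). Of all genes tested, edgeR called 0% for a difference between cycles, 543 passed an unadjusted p under 0.05, and DESeq2 called 0. Of the 9 genes, Aqp4 alone passed the unadjusted threshold, by edgeR and by DESeq2. Its log2 dusk minus dawn difference was 0.02, with a 95% interval of -0.25 to 0.30.

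Slc1a2 (GLT-1, ENSMUSG00000005089, chromosome 2, 102498752-102631873) encodes the main glutamate transporter of forebrain astrocytes. It had 1328 and 1166 CPM at CT4, 1296 and 1182 CPM at CT10, 1269.9 and 1181 CPM at CT16, and 1279 and 1399.5 CPM at CT22. Pairs within a time differed as much as the times did. The day to night ratio was 0.970, with a 95% interval of 0.856 to 1.10, and the dusk to dawn ratio 0.953, from 0.841 to 1.08. Changes beyond these bounds lie outside the intervals, while smaller ones could not be told from the spread. Slc1a3 (GLAST, ENSMUSG00000005360, chromosome 15, 8583903-8660806) is the other glutamate transporter of astrocytes. It had 1122 and 1155 CPM at CT4, 1068 and 1087 CPM at CT10, 1161 and 1079 CPM at CT16, and 1039.7 and 1255 CPM at CT22. It had the lowest coefficient of variation of the 9 genes, 6.12%, and both extremes fell on CT22. Its day to night ratio was 0.977, with a 95% interval of 0.863 to 1.11, and its dusk to dawn ratio 0.961, from 0.849 to 1.09.

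Gja1 (connexin 43, ENSMUSG00000050953, chromosome 10, 56097085-56110513) and Gjb6 (connexin 30, ENSMUSG00000040055, chromosome 14, 57741989-57752490) encode the gap junction proteins of astrocytes. Gja1 had 329 and 395 CPM at CT4, 418 and 376 CPM at CT10, 404 and 441 CPM at CT16, and 393 and 448 CPM at CT22. It averaged 379 ± 37.7 CPM by day and 422 ± 27.2 CPM by night (SD, n = 4 each), with overlap, and a log2 difference of -0.15 (edgeR adjusted p = 0.729). Gjb6 had 79.9 and 88.4 CPM at CT4, 107 and 107 CPM at CT10, 113 and 113 CPM at CT16, and 100.0 and 132 CPM at CT22. Its pairs lay close together at CT10 and CT16, and CT4 was lowest in both cycles. Gjb6 averaged 95.7 ± 13.9 CPM by day and 114 ± 13.1 CPM by night (SD, n = 4 each), again with overlap. The log2 day minus night difference was -0.27, with a 95% interval of -0.49 to -0.04 (edgeR unadjusted p = 0.0225, adjusted p = 0.545). Leaving out each library in turn gave -0.31 to -0.14, the last without CT22 replicate 2. The fitted log2 peak-to-trough difference of Gjb6 was 0.44 ± 0.15 (SE) with a peak at CT17.0 (adjusted p = 0.571).

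Aldh1l1 (ENSMUSG00000030088, chromosome 6, 90436411-90550328) encodes a folate enzyme that marks astrocytes broadly. It had 65.3 and 56.1 CPM at CT4, 63.0 and 63.1 CPM at CT10, 61.5 and 51.2 CPM at CT16, and 62.1 and 57.4 CPM at CT22. The day to night ratio was 1.07, with a 95% interval of 0.924 to 1.23. Aldoc (ENSMUSG00000017390, chromosome 11, 78136445-78141435) encodes the brain form of aldolase, an enzyme of glycolysis. It had 786 and 684 CPM at CT4, 967 and 823 CPM at CT10, 784 and 641 CPM at CT16, and 713 and 851 CPM at CT22. CT10 was high in both cycles, although the second CT10 library lay below the second CT22 library. Like Gfap, Aldoc was lower at CT4 and CT16 than at CT10 and CT22, by a log2 term of -0.21 (edgeR unadjusted p = 0.0489, adjusted p = 0.668). Without CT10 replicate 1 that term was -0.15 (edgeR unadjusted p = 0.198).

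With the filter on low counts, no gene of the 9 passed the test of any axis over all genes. By edgeR, 0 of 9 were called between day and night, where 0.105% of all genes tested were, with 1 of 9 at an unadjusted p under 0.05 and 7.72% of all genes at that level. Between dusk and dawn 0 of 9 were called, against 0.0197% of all genes, with 2 of 9 at an unadjusted p under 0.05, Gfap and S100b, and 7.84% of all genes. Neither passed at that level without CT10 replicate 1. DESeq2 called 0 of 9 on either axis, and at an unadjusted p under 0.05 it passed 1 between day and night and 0 between dusk and dawn. For the 12-h term the share of all genes called was 0%, 1137 genes passed the unadjusted threshold, and DESeq2 called 8 genes, none of them among the 9. The day and night libraries did not overlap in 0 of 9 genes and in 4.65% of all genes. For dusk and dawn this was 0 of 9 and 3.61%, and for the second and first cycle 0 of 9 and 1.86%. The median log2 dusk minus dawn difference of the 9 was 0.07, with 6 of 9 above 0, and over all genes tested the median was 0.01 with 51.4% above 0. Without CT10 replicate 1, 4 of 9 were above 0. In the authors' deposited table, the JTK rhythm test gave a q-value of 1.0 for each of the 9, and the lowest adjusted p was 0.435, for Gjb6 with a lag of 17.5 h.

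**Figure D3:**
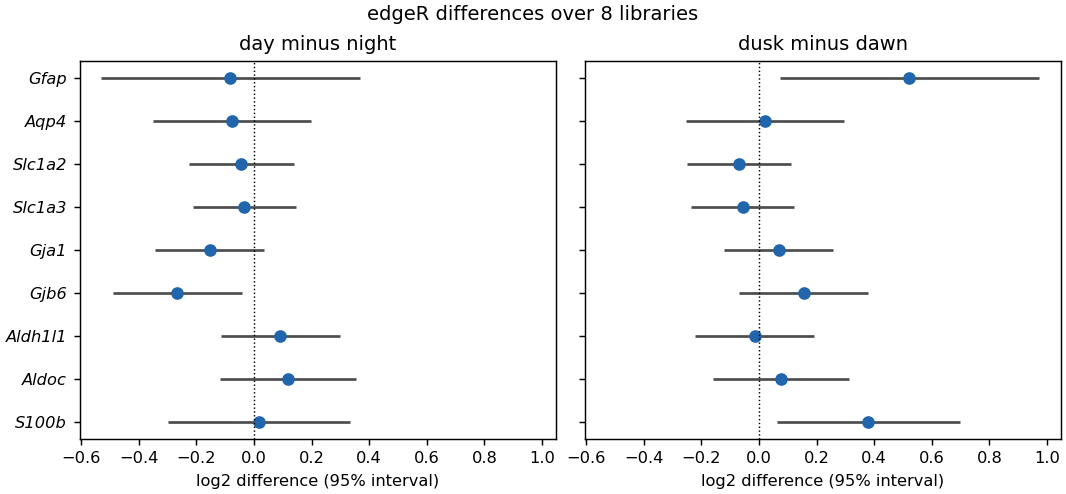
Log2 differences by edgeR for the 9 genes, day minus night and dusk minus dawn, with 95% intervals over 8 libraries. The interval of Gjb6 lies below 0 between day and night, and those of Gfap (0.07 to 0.97) and S100b (0.06 to 0.70) lie above 0 between dusk and dawn, before adjustment over all genes.

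Among themselves the 9 genes fell along a range of likeness over the 8 libraries. Of 36 pairs, 23 had a positive Pearson's r of log2 CPM, and the median r was 0.25. Gfap and S100b had r = 0.943 (exact permutation p = 0.000471, adjusted over 36 pairs 0.0170) and rho = 1 (exact permutation p = 4.96e-05). Without the 2 libraries farthest from the median of Gfap, r was 0.933. This was the only pair with an adjusted p under 0.05. The next were Gja1 with Gjb6 (r = 0.842, rho = 0.786, exact permutation p = 0.0114, adjusted 0.136) and Aqp4 with Gja1 (r = 0.819, rho = 0.786, exact permutation p = 0.0104, adjusted 0.136). These 2 relations rested on few libraries, since r was 0.424 and 0.461 without the 2 farthest. Aldh1l1 ran against Aqp4, with r = -0.800 and rho = -0.714 (exact permutation p = 0.0163, adjusted 0.147), and with r = -0.818 without the 2 farthest. The glutamate transporters Slc1a2 and Slc1a3 had r = 0.437 with each other (exact permutation p = 0.279, adjusted 0.670).

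**Figure D4:**
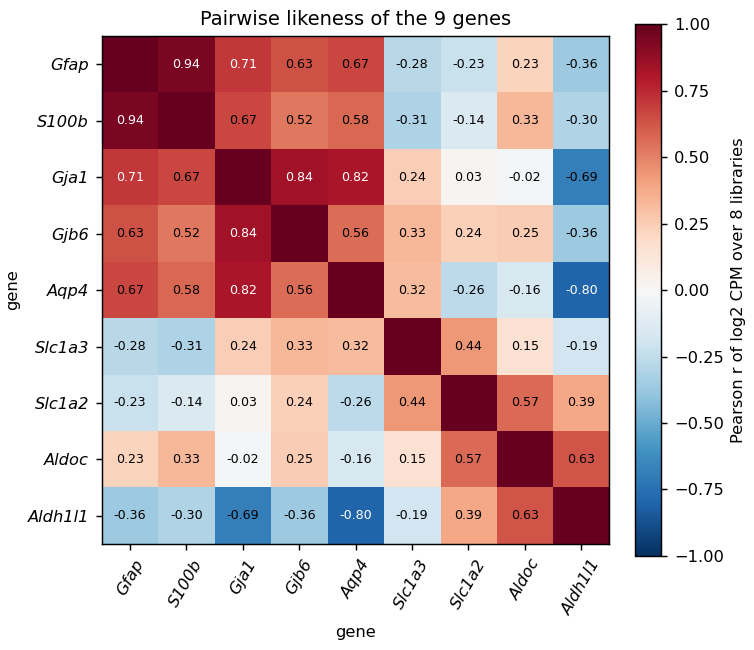
Pearson's r of log2 CPM over 8 libraries for each pair of the 9 genes, from blue (negative) to red (positive). Gfap and S100b share 0.94, and Aldh1l1 is negative with Aqp4 at -0.80.

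The genes whose log2 levels were most like each marker, among 11892 genes with a mean of at least 5 CPM, differed from marker to marker. For Gfap they were Nfe2l3 (r = 0.992), the growth factor receptor gene Fgfr2 (0.991) and Epb4.1l2 (0.988). For S100b they were Trit1 (0.984), the intermediate filament gene Vim (0.981) and Apod (0.978). Gja1 was most like Mtus1 (0.974), the tight junction scaffold gene Tjp1 (0.957) and Gna13 (0.954), and Gjb6 most like A2m (0.966), Eml1 (0.954) and Egflam (0.949). Aqp4 was most like Kctd4 (0.966), 9130023H24Rik (0.965) and Ptprd (0.961), and Slc1a2 most like Mmachc (0.972), Xlr3a (0.958) and Hdac4 (0.941). Slc1a3 was most like Ttpal (0.967), Pcdh19 (0.947) and Rprd1b (0.939). Aldh1l1 was most like Rasgef1c (0.983), the ribosomal protein gene Rpl15 (0.971) and Tusc2 (0.963), and Aldoc most like Mdp1 (0.977), Praf2 (0.974) and Nme6 (0.968). These r values are the highest of many over only 8 libraries, and no p belongs to them.

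Levels between genes were compared per kilobase of listed exon. The length counts every exon listed as known, also those with few reads, so the order depends on the listing. In Slc1a3 an exon of 721 bases held 69 reads, and one of 2437 bases held 76287. Long forms that take in part of an intron count as well. In Slc1a3 such a form of 1353 bases held 4756 reads, and a listed exon of 278 bases inside it held 6075. The place of Slc1a3 in the order below depends on such forms. Aldoc was highest with 225 ± 29.8 CPM per kb (SD, n = 8), followed by S100b with 160 ± 39.3 and Gfap with 132 ± 42.8. Slc1a3 had 122 ± 7.45, Gja1 105 ± 9.94 and Slc1a2 92.2 ± 5.99 CPM per kb. Then came Aqp4 with 36.6 ± 5.71, Gjb6 with 33.6 ± 5.12 and Aldh1l1 with 13.5 ± 1.05 CPM per kb. Gfap lay above Slc1a3 in only 5 of 8 libraries, whereas S100b lay above Gfap in 8 of 8. Ranges over libraries overlapped for every pair of neighbours in this order except Slc1a2 with Aqp4 and Gjb6 with Aldh1l1.

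These levels rest on different parts of the messages. In Slc1a2 the last exon, of 10254 bases (chr2:102621620-102631873, mm9), took 98.3% of the exon reads, although it is 74.9% of the exon length. The other exons of Slc1a2 together held 192 to 305 reads per library, and its most-read junction 17 to 43. The last exon held 96.2% of reads in Aqp4, 96.7% in Gja1, 90.8% in Gjb6 and 72.9% in Slc1a3, in each case more than its share of the length. For Aldh1l1, Aldoc and S100b it held less than its share, 8.76%, 22.4% and 74.3% of reads on 32.6%, 48.3% and 84.5% of the length. The longest listed form of every exon was taken, of the last and of the others, and the shares of reads and length depend on that choice. Among the other exons of Slc1a3, a form of 2160 bases held 2208 reads. A listed exon of 205 bases inside that form held 3724. In Aldoc, 20250 of the 22552 last-exon reads lay in a listed form of 491 bases, where the longest has 1672. In Aldh1l1, 677 of 800 lay in a form of 301 bases, where the longest has 1448. Over 9735 genes the median was 47.8% of reads on 39.7% of the length. Reads per base in the last exon over the other exons depend on the same choice, so the excess in Slc1a3 may lie in the listing. They were 19.2 for Slc1a2, 7.49 for Slc1a3 and 7.14 for Aqp4, against a median of 1.47 over all genes. These shares were steady between libraries for Slc1a2 (97.7% to 98.6%) and moved most for Gfap (42.7% to 55.1%), where the lowest was CT22 replicate 1. The median over all genes was lowest in that library too, 45.7% against 48.0% to 48.8% in the others.

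**Figure D5:**
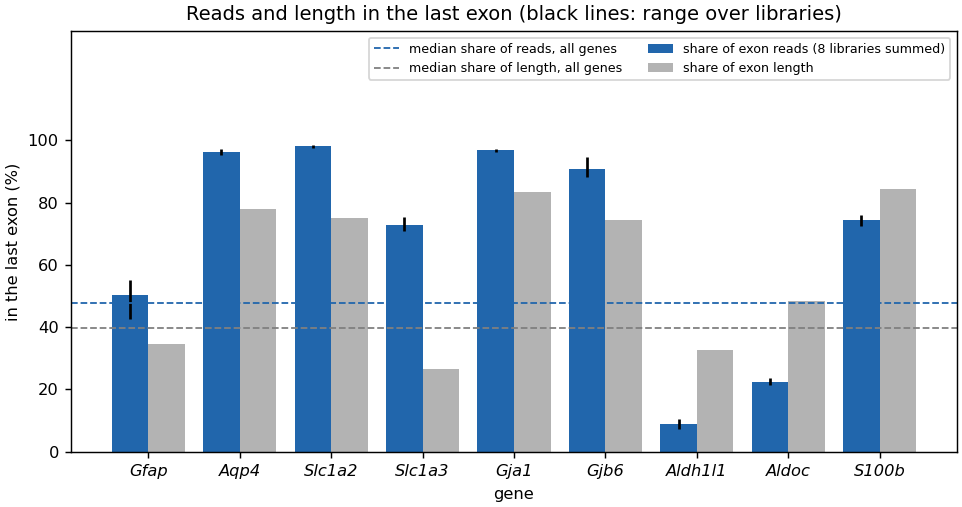
Share of exon reads (blue bars, 8 libraries summed, with the range over libraries as a black line) and of exon length (grey bars) in the last exon of each gene. The longest listed form of every exon was taken, and dashed lines are medians over all genes. Slc1a2 has 98.3% of its reads there and Aldh1l1 8.76%.

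Intron reads were usable for few of the 9 genes. Of the reads over their 104 listed introns, 88.9% lay in the 45 introns that overlap a listed exon. Introns were therefore summed without overlap within a gene, and 8 of 9 genes had enough reads for the test; Gja1 did not, with 18 reads in all. By edgeR 0 of 8 were called for a 24-h rhythm, where 0.255% of 13725 genes were, and 1 of 8, Gfap, had an unadjusted p under 0.05. Between day and night 0 of 8 were called against 0.102% of all genes, and between dusk and dawn 0 of 8 against 0.189%, each with 1 of 8 at an unadjusted p under 0.05. Over all genes 10.4%, 7.89% and 9.81% passed that level for the rhythm, day against night and dusk against dawn. DESeq2 called 0 of 8 in each of these tests, with no adjusted p for Aqp4, S100b and Slc1a2. At an unadjusted p under 0.05 it passed Slc1a2 between day and night and none in the other tests. The unadjusted day-night call was Slc1a2, with a log2 difference of -0.73 on 16 to 51 reads per library. In introns free of listed exons, with 1 to 21 reads per library, the difference was -0.41 and did not pass the unadjusted threshold (edgeR adjusted p = 0.945). The Gjb6 intron sum, 146 to 297 reads per library, was 0 to 17 reads without introns that overlap exons.

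Splice junctions, exon usage and the opposite strand gave no call either. Of 63 tested junctions of the 9 genes, 0 were called by edgeR, where 0.0179% of 78212 junctions were, and 0 had an unadjusted p under 0.05. The lowest p, 0.0535, belonged to a Gfap junction (chr11:102757125-102757979, mm9). In exon usage, 0 of 9 were called between day and night against 0.0256% of genes, and 0 of 9 between dusk and dawn against 0.00854%. At an unadjusted p under 0.05 it was 0 of 9 on either axis, against 3.23% and 1.96% of genes. Antisense reads were tested for 7 of the 9, with 0 called, 0% of all 3693 genes called, 128 of all genes at an unadjusted p under 0.05, and 0 of 7 at that level. Over the 9 genes CT10 replicate 1 had 84 antisense and 61270 sense reads, against 238 to 343 antisense and 48672 to 58383 sense reads in the other libraries. Sense and antisense tables were brought to equal totals separately, so these reads compare the genes with the rest of each table.

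Genes around the 9 in astrocyte biology showed the same absence of calls. The 9 lists held 126 tested genes (128 found of 129 symbols), and edgeR called 0 of them for a 24-h rhythm, between day and night, between dusk and dawn or between cycles. At an unadjusted p under 0.05 for the rhythm 19 passed, 15.1%, against 8.6% of all genes. Without CT10 replicate 1 it was 13, 10.3%, against 5.91% of all genes. In amino acid handling 3 of 16 did so: Slc7a11, the cystine exchanger, Phgdh, of serine synthesis, and Grm3, a glutamate receptor. The edgeR adjusted p of the 3 ran from 0.460 to 0.504. Of the endfoot water and ion genes 2 of 15 passed unadjusted, Hepacam and Mlc1, partners in an astrocyte adhesion complex. Of the other connexins and pannexins 2 of 11 passed, among them Gjb2, a connexin with an edgeR adjusted p of 0.554. Of the filament and reactive astrocyte genes 4 of 19 passed, with the lowest p-values in Serpina3n, C4b and Gbp2. The dusk minus dawn difference was above 0 in 17 of 19, as it was in 12 of 12 oligodendrocyte markers and 51.4% of all genes. Without CT10 replicate 1, 3 of 19 passed and 15 of 19 lay above 0. Serpina3n had 74.3 CPM in that library and 28.2 to 38.4 CPM in the others. Vim had a log2 dusk minus dawn difference of 0.61 (edgeR adjusted p = 0.517), which was 0.34 without that library. That list also had its highest sum, 836 CPM, in CT10 replicate 1 and its lowest, 486 CPM, in CT4 replicate 1.

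Of the astroglial transcription factors 2 of 15 passed unadjusted. Sox2, a factor of neural stem cells and astroglia, came nearest to a call in any of these lists, with a fitted peak at CT20.3 (edgeR adjusted p = 0.128) and a log2 day minus night difference of -0.44 (adjusted p = 0.0867). Without CT10 replicate 1 the Sox2 difference was -0.45 (edgeR adjusted p = 0.230), and the adjusted p for its rhythm was 0.387. Folate one-carbon genes, the pathway of Aldh1l1, had 2 of 11, led by the mitochondrial enzyme gene Mthfd1l (adjusted p = 0.291). S100 relatives had 2 of 7, S100a6 and S100a13, and 0 of 7 without CT10 replicate 1, where S100a6 had 68.3 CPM against 16.2 to 27.4 CPM in the others. That is edgeR's count at the unadjusted level, and the adjusted count was 0 either way. The aldolase and metabolism list had 1 of 12, the glucose transporter gene Slc2a1, and the secreted and receptor genes 1 of 20, the protease gene Htra1.

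Markers of other cells gave the setting. The 13 lists held 98 tested genes, of which 1 was called for a rhythm and between day and night, Vipr2 of SCN neurons (edgeR adjusted p = 0.0157 for the rhythm, and 0.0851 without CT10 replicate 1). At an unadjusted p under 0.05 for the rhythm, 11 of 12 oligodendrocyte markers and 7 of 8 SCN neuron markers passed, against 1 of 6 oligodendrocyte precursor, 1 of 10 microglial, 1 of 10 endothelial and 1 of 9 mural markers. It was 1 of 6 for ependyma, 2 of 6 for tanycytes, 1 of 5 for choroid plexus, 1 of 7 for meninges, 1 of 10 for neurons, 1 of 4 for arcuate neurons and 0 of 5 for blood. Of all genes tested 8.6% passed. Without CT10 replicate 1, 8 of 12 oligodendrocyte and 7 of 8 SCN neuron markers passed, against 5.91% of all genes. The dusk minus dawn difference was above 0 in 12 of 12 oligodendrocyte markers, with a median log2 of 0.56, and in 6 of 7 meningeal markers, with 0.46. It was above 0 in 0 of 8 SCN neuron markers, with a median of -0.55, and in 0 of 5 blood markers, with -0.56. Over all genes tested 51.4% lay above 0. Without CT10 replicate 1, 11 of 12 oligodendrocyte markers lay above 0, with a median of 0.42, and 5 of 7 meningeal markers, with 0.39. The SCN neuron and blood markers stayed at 0 of 8 and 0 of 5, with medians of -0.57 and -0.91. The summed level of the 7 meningeal markers was lowest in CT4 replicate 1, at 105 CPM, against 293 to 586 CPM elsewhere. The sum of 10 general neuron markers ran from 4083 CPM in CT16 replicate 2 to 5251 CPM in CT4 replicate 1. The part of these cells in the levels of the 9 genes was not tested.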

How the data were processed

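RNA was measured in 8 pooled libraries of mouse SCN. STAR 2.3.0e and mm9 are named in the submitters' processing notes. What was deposited are whole-number counts for genes, introns, exons and junctions, with totals nearly equal within each table except that of junctions (3196136 to 3437120 reads). How reads were counted and totals equalised is not given in the sources used here. Per the file headers, the authors' tables also give a JTK q-value, an adjusted p-value and a lag in hours. Counts were tested in edgeR 4.0.16 (quasi-likelihood, TMM, R 4.3.3), with Benjamini-Hochberg adjustment over all features reaching 10 reads in 2 or more libraries. The terms were day against night and dusk against dawn, which together form a 24-h cosine with 5 residual degrees of freedom. CPM are counts over effective library size. For each gene, introns were summed from the shortest up without overlap. Last exons were found with GENCODE strands. The scripts were tested on simulated data, and DESeq2 1.42.0 and other settings were tried as alternatives.

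The 9 genes and all lists were chosen with earlier results of these data known. The rule named all 9 genes, up to 3 genes of each other list with the lowest rhythm p, the 3 genes most like each marker by Pearson's r, and the most-read features. Vim, as a list member, and the Gfap delta junction were named after their values were seen. For 7 genes the antisense test had enough reads. The labels give CT18 as the start of collection, while the first library is titled CT22. Antisense tables of exons and introns had no part here. Some genes and sequences that the rules cover are not reported here.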

Additional observations from a re-analysis of the deposited data

How the results depend on the processing

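Of 93 alternative values for the signed differences of Gfap, S100b, Gjb6, Aqp4 and Slc1a2, 92 kept their direction. The dusk minus dawn difference of Gfap was -0.0753 with the oligodendrocyte score as a term, and the cause was not tested. That score and Gfap had r = 0.996 over the same libraries. None of the 9 genes was called under other scaling, DESeq2, added terms or any library left out. Without the filter on low counts edgeR called 2 of 9, Gfap and S100b, for the rhythm (adjusted p = 3.21e-05 and 0.0166) and between dusk and dawn (9.51e-06 and 0.00735), and in introns 1, Gfap, between dusk and dawn (0.0439); log2 differences then were 0.52, 0.37 and 0.54. Calls over all genes were 17 for the rhythm, 16 between day and night and 3 between dusk and dawn. They were 98, 56 and 34 by DESeq2, 362, 137 and 239 without the filter, 8 to 50, 8 to 28 and 3 to 59 with a library left out, and 27 and 28 for the first 2 with a 12-h term. The 50 and 59 came without CT16 replicate 1. With the oligodendrocyte score 34 were called between day and night, and 1 between cycles, an alternative chosen after seeing the data, as were 2 other intron sums and the list counts without CT10 replicate 1. Between cycles 0 to 2 genes were called with a library left out, and for the 12-h term 0 to 51, or 8 by DESeq2. Intron calls (35, 14 and 26) were 93, 45 and 42 by DESeq2, 171, 59 and 108 without the filter, and 12 to 56, 2 to 13 and 3 to 54 with a library left out. Antisense calls were 1 and junction calls 7 with their own TMM factors, and exon usage had 7 day-night calls with at least 50 reads. Replicate numbers follow accession order and pair no samples; with the cycle as a replicate block, calls were 21, 17 and 6 for genes and 46, 13 and 38 for introns, with 0 of the 9 genes called. Depth limits the intron values of Gja1, Aqp4, S100b and Slc1a2, with 18, 89, 159 and 297 reads in all, and of Gjb6 outside exons, with 59.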
